A study of Homo sapiens with 5 samples.

Results

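The genes described here are 5 target genes of serum, serum response factor (SRF) and YAP signaling, FOS, EGR1, HBEGF, CCN1 and ANKRD1, which are 5 of the 2694 genes with a deposited value in each library. They were chosen by name after their values in growth and hypertrophic medium had been seen, so their difference between the media is given as a description and was not tested. FOS, EGR1 and HBEGF stand for the immediate early response to serum and CCN1 and ANKRD1 for the YAP response, although CCN1 belongs to both. TC28a2 cells, a chondrocyte line from costal cartilage, were grown for 5 days either in growth medium (GM, 2 libraries) or in hypertrophic medium (HM, 3 libraries), and their total RNA was sequenced. Growth medium was high-glucose DMEM with 10% fetal bovine serum. Hypertrophic medium, renewed every 2 days, had the same base but 1% serum, and it added insulin-transferrin-selenium (1%), BMP-2 (100 ng/ml), GDF-5 (10 ng/ml), the thyroid hormone T3 (1 µM), ascorbic acid (50 µg/ml), dexamethasone (10 nM) and β-glycerophosphate (10 mM). The lower serum and the additions came together, so their parts in any difference cannot be told apart.

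Serum growth factors and lipids act on cells along a pair of routes that meet at SRF. The kinase ERK activates the ETS-type partners of SRF, and FOS and EGR1 are then transcribed within minutes, without new protein synthesis. Signals through small GTPases polymerize actin and release the myocardin-related coactivators (MRTF) of SRF, which switch on cytoskeletal genes. Actin tension and cell spreading also bring YAP and its paralog TAZ, the effectors of the Hippo pathway, into the nucleus, where they bind DNA through TEAD factors. In cartilage, ERK and YAP activity are both known for restraining or altering chondrocyte differentiation.

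The promoter sequences are shown because these routes act through DNA sites near the start of their target genes. RefSeq (GRCh38.p14) gave a window of 250 bases before to 50 bases after the transcription start for 4 of the 5 genes, CCN1 not being matched, and each window had 1 exact match in GRCh37, whose coordinates are used. The windows are chr14:75745281-75745580 (plus strand) for FOS, chr5:137800918-137801217 (plus strand) for EGR1, chr5:139726139-139726438 (minus strand) for HBEGF and chr10:92680795-92681094 (minus strand) for ANKRD1. Capitals mark matches on either strand to the CArG box that SRF binds, to GGAATG, the core motif of TEAD factors, to TGANTCA, the AP-1 motif, to CCGGAA, the core motif of ETS factors, to GGGCGG, the GC box, or to TATAAA, the TATA box.
FOS: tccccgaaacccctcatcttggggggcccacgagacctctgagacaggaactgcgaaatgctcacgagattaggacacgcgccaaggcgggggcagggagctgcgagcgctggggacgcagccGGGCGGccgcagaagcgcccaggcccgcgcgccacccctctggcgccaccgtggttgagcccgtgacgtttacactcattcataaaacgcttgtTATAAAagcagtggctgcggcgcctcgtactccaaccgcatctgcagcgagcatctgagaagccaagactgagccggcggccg
EGR1: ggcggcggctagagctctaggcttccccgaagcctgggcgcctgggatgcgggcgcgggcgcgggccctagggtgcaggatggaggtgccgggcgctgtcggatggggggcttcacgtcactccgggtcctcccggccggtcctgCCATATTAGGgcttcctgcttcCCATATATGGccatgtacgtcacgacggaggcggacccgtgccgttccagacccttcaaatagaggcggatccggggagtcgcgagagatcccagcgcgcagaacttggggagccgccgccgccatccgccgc
HBEGF: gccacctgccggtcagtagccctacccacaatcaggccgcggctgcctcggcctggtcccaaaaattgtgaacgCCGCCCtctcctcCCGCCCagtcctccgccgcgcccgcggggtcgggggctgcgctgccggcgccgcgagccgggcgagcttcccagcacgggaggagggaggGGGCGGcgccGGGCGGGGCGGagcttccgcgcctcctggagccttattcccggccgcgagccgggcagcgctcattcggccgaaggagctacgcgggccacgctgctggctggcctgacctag
ANKRD1: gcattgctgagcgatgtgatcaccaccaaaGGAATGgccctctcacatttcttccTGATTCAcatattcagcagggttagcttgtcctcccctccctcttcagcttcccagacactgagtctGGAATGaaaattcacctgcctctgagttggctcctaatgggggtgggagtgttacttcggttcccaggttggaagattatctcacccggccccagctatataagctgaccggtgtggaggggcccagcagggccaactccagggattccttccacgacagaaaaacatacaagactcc

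EGR1 held 2 CArG boxes, CCATATTAGG beginning at -105 and CCATATATGG at -83 from the start, whereas 1.29% of the 35116 promoter windows held any. ANKRD1 held 2 copies of GGAATG, beginning at -220 and -128, and 1 match to TGANTCA at -195, motifs found in 14.0% and 7.71% of all windows. FOS had a TATA box at -33 (11.5% of all windows) and 1 GC box at -127. HBEGF had 5 GC boxes, beginning at -176, -163, -73, -63 and -58, of which the last pair overlaps by 1 base, and 45.0% of all windows held at least 1. CCGGAA, found in 17.2% of all windows, was in none of the 4, and none of the listed motifs was shared by 2 of them except the GC box of FOS and HBEGF. A match describes letters only, and sites outside the window were not searched. Of the 1758 listed genes with a window, 30 (1.71%) held a CArG box and 297 (16.9%) held GGAATG. Of the 30, 18 had a higher and 12 a lower mean in hypertrophic medium, and of the 297, 191 and 106. Over all 2694 listed genes the mean was higher for 63.4% and lower for 36.6%, near the split of both groups.

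**Figure D1:**
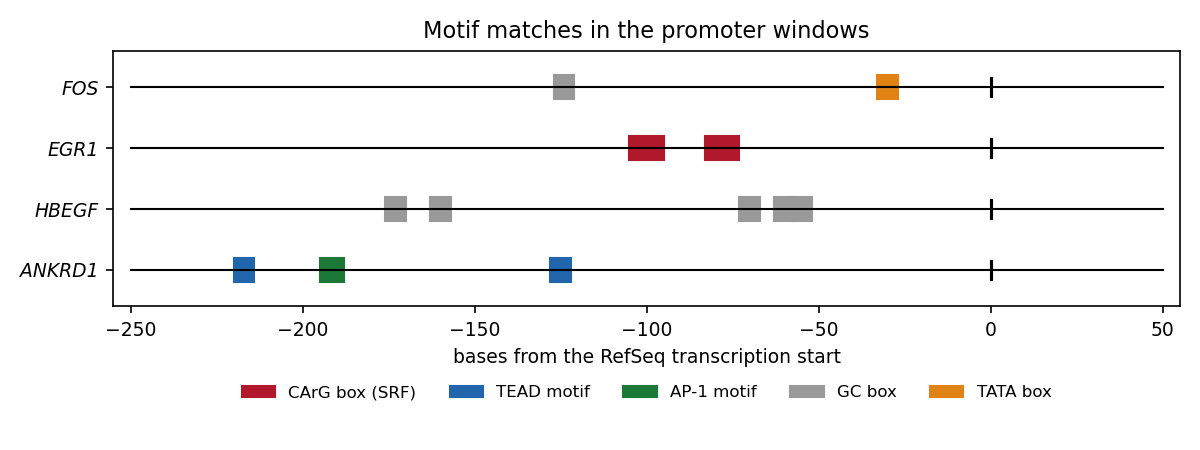
Motif matches in the promoter windows of FOS, EGR1, HBEGF and ANKRD1, plotted by their distance in bases from the RefSeq transcription start (vertical tick at 0). The 2 CArG boxes lie in EGR1 and the 2 TEAD motifs in ANKRD1, while HBEGF holds only GC boxes.

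The deposited values are log2-transformed and RLE-normalized, a correction for library size, with 1 value per gene and library. They are not divided by gene length, so levels are compared between libraries and not between genes. The median over the listed genes was 8.17 and 8.18 in growth medium and ran from 8.43 to 8.62 in hypertrophic medium. Hypertrophic replicate 1 stood apart, being the highest of the 3 hypertrophic libraries for 55.1% of the genes that were higher there and for 22.3% of those that were lower. The smallest difference between the media in either direction was 0.214 among genes with a mean under 6 and 0.549 among those with a mean of at least 10, so genes with smaller differences are not in the listing. Differences may also be compressed at low values, which was not tested, so that a threshold of 1 and a rank by size need not mean the same at every level. The numbers of genes with a higher and with a lower mean are those of the genes that the study had called different between these media, so every listed gene, the 5 included, had already been selected for this contrast. A small p-value was therefore close to fixed in advance, and the adjusted p-values below rank listed genes and are no independent evidence of a difference. The transformation is not named further, and its differences are not read as exact fold changes. The read depth is unknown from these values. In bulk RNA, fewer cells expressing a gene and less RNA per cell cannot be told apart. The study's methods call its replicates biological, but the labels tie no library to a culture of its own.

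FOS and EGR1, transcription factor genes that serum induces at once, were higher in the medium with less serum. FOS encodes the AP-1 subunit c-Fos and lies on chromosome 14 of GRCh37 from 75745529 to 75748933 (plus strand, 4 exons). Its value was 8.42 and 8.28 under growth medium against 10.14, 9.65 and 9.52 under hypertrophic medium, given here and for every gene in the order of their replicate numbers. Every hypertrophic library lay above both growth medium libraries, and the gap between the nearest of them was 1.10. The means were 8.35 ± 0.093 (SD, n = 2) and 9.77 ± 0.33 (SD, n = 3), a difference of 1.42 on the log2 scale.

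EGR1, a zinc finger factor gene on chromosome 5 from 137801168 to 137804992 (plus strand, 2 exons), was 8.08 and 7.90 in growth medium. It was 10.34, 9.40 and 8.96 in hypertrophic medium. The media did not overlap, with a gap of 0.87, but the hypertrophic libraries spanned 1.38. The means were 7.99 ± 0.13 (SD, n = 2) and 9.57 ± 0.71 (SD, n = 3), a difference of 1.57. The SD of EGR1 in hypertrophic medium exceeded that of 99.0% of listed genes, and that of FOS exceeded 88.2%. Without hypertrophic replicate 1 the difference was 1.19 for EGR1 and 1.23 for FOS, so the order of the pair rested on that library. Among the 1707 genes with a higher mean in hypertrophic medium, EGR1 ranked 66 and FOS ranked 104 by size.

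HBEGF, which encodes a membrane-anchored ligand of the EGF receptor that proteases release from the cell surface, was lower in hypertrophic medium. The gene lies on chromosome 5 from 139712428 to 139726188 (minus strand, 6 exons). It was 11.40 and 11.35 in growth medium and 9.62, 9.58 and 9.75 in hypertrophic medium. All hypertrophic libraries lay within 0.17 of each other and below growth medium by a gap of 1.60. The means were 11.38 ± 0.037 (SD, n = 2) and 9.65 ± 0.090 (SD, n = 3), a difference of -1.73, which ranked 48 among the 987 genes with a lower mean. HBEGF and EGR1 are on the same chromosome with 1.91 megabases between them. The 4 listed genes in that interval, 3 higher and 1 lower, were PROB1 (0.52), STING1 (0.84), CXXC5 (0.76) and SNHG4 (-0.68), chosen for their position after the values were seen.

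CCN1 and ANKRD1, the YAP targets, were both lower in hypertrophic medium, by unequal amounts. CCN1 encodes a secreted matricellular protein that binds integrins and lies on chromosome 1 from 86046444 to 86050272 (plus strand, 5 exons). Its value was 12.99 and 12.86 in growth medium and 11.96, 12.17 and 11.81 in hypertrophic medium. The media did not overlap, and the gap between them, 0.68, was the smallest of the 5 genes. The means were 12.93 ± 0.094 (SD, n = 2) and 11.98 ± 0.18 (SD, n = 3), a difference of -0.94 and a rank of 225 among the lower genes.

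ANKRD1 encodes a muscle ankyrin repeat protein of the sarcomere and nucleus and lies on chromosome 10 from 92671853 to 92680844 (minus strand, 9 exons). It was 11.95 and 11.91 in growth medium and 8.69, 8.46 and 8.57 in hypertrophic medium. The gap between the media was 3.22, while the hypertrophic libraries spanned 0.23. The means were 11.93 ± 0.031 (SD, n = 2) and 8.57 ± 0.11 (SD, n = 3), a difference of -3.36, the second largest decrease of all listed genes.

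**Figure D2:**
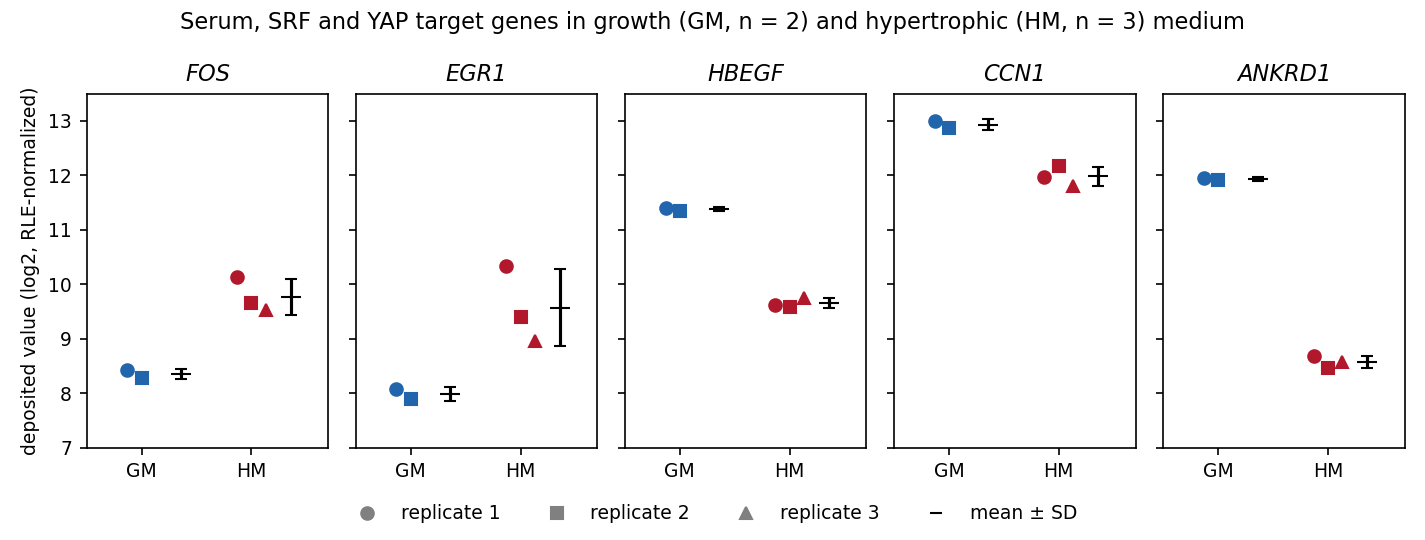
Deposited log2 values of the 5 genes in each growth medium (GM, blue) and hypertrophic medium (HM, red) library, with symbols for replicates and black bars for the mean ± SD. FOS and EGR1 lie higher in HM, where EGR1 spans 1.38, and HBEGF, CCN1 and ANKRD1 lie lower, with spans of 0.17, 0.36 and 0.23.

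The 5 genes thus split into 2 that were higher and 3 that were lower, and the split ran through the immediate early genes and not between them and the YAP targets. Of all 2694 listed genes, 63.4% had a higher and 36.6% a lower mean. For each of the 5 the hypertrophic libraries all lay on one side of growth medium, as they did for 62.5% of listed genes in the higher direction and for 36.5% in the lower. ANKRD1 was the only one of the 5 past a difference of 2 in the deposited values, HBEGF reaching -2.08 under median centring and under quantile normalization. That size with an adjusted p under 0.05 was reached in the deposited values by 1.04% of listed genes upward and by 1.08% downward. A difference taken between genes of the same library does not depend on a constant added to that library, such as median centring, though quantile normalization can alter it. The genes were therefore also set against each other. FOS minus CCN1 was -4.58 and -4.57 in growth medium and -1.82, -2.52 and -2.30 in hypertrophic medium. EGR1 minus HBEGF moved from -3.32 and -3.45 to 0.72, -0.18 and -0.79. In both pairs every hypertrophic library stood more than 1 above growth medium. Each pair sets a gene already seen higher against a gene already seen lower, so this restates their differences and is no further evidence. FOS minus EGR1 stayed between -0.20 and 0.56 over all 5 libraries and its media overlapped. ANKRD1 minus CCN1 went from -1.04 and -0.95 to -3.28, -3.72 and -3.24, so the YAP targets did not move by the same amount.

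**Figure D3:**
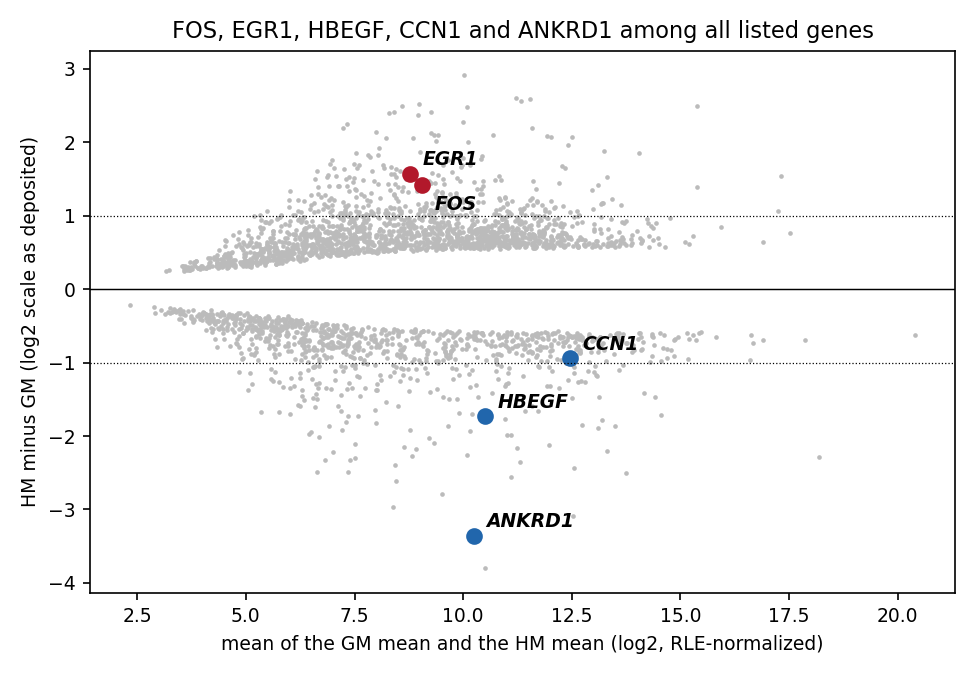
Difference between the media (HM minus GM, log2 scale) of the 2694 listed genes against the mean of their GM and HM means, with the 5 genes labelled and dotted lines at 1 and -1. ANKRD1, at -3.36, lies at the lower edge, CCN1 lies at -0.94, and no gene lies near 0.

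The pathway around these genes was followed in 11 gene lists that hold 217 different genes, of which 55 were listed in the files beside the 5. A gene was called when its difference was at least 1 or at most -1 with an adjusted p under 0.05 in limma, which sets each difference against a replicate spread moderated across all 2694 genes. Of all listed genes, 318 (11.8%) were called higher and 190 (7.05%) lower. Of the 55 genes, 6 were called higher and 12 lower, the 6 becoming 10 without hypertrophic replicate 3 or with a replicate block. Median centring of the libraries takes 0.347 off all differences, so that genes with a higher mean come closer to 0. Under it 29 of the 55 were called lower, including 6 MRTF-SRF and 9 YAP/TAZ targets. Of all 2694 listed genes, 565 were called lower under the same scaling, against 190 in the deposited values. An adjusted p under 0.05 alone was reached by 54 of the 55, but also by 62.5% of all listed genes in the higher and 36.5% in the lower direction. The median difference of all listed genes was 0.56.

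The other immediate early genes had means on both sides, and the number called depended on the scaling. Of the 37 genes of that list, 8 were listed besides FOS, EGR1, HBEGF and CCN1, of which 4 had a higher and 4 a lower mean, with a median difference of -0.15. LIF, an interleukin-6 type cytokine gene, fell, being 12.48 and 12.48 in growth medium and 10.24, 10.16 and 9.97 in hypertrophic medium (difference -2.36, standard error 0.13, adjusted p = 4.33e-06, limma). It was the only one of the 8 called, against 0 called higher, but 4 were called lower under median centring or quantile normalization, JUN (-1.30 and -1.05), ATF3 (-1.14 and -1.20) and DUSP1 (-1.13 and -1.12) being added. JUN, which encodes the partner of c-Fos in AP-1, had 12.63 and 12.65 in growth medium and 11.60, 11.68 and 11.80 in hypertrophic medium, a difference of -0.95 (adjusted p = 0.000169, limma) just short of the threshold. FOS minus JUN accordingly moved from -4.22 and -4.36 to -1.46, -2.03 and -2.28. The stress factor gene ATF3 and the MAP kinase phosphatase gene DUSP1 had differences of -0.79 and -0.78 (adjusted p = 0.000929 and 0.000512, limma). On the other side, ZFP36, whose protein promotes decay of AU-rich mRNAs, had 6.55 and 6.62 against 7.64, 7.52 and 7.17, a difference of 0.86 (adjusted p = 0.00188, limma) or 0.51 with centred libraries. FOSB, IER5L and NR4A3 had differences of 0.57, 0.58 and 0.48 (adjusted p = 0.0174, 0.00494 and 0.00487, limma), and differences of 0.22, 0.23 and 0.13 after median centring of the libraries (adjusted p = 0.262, 0.117 and 0.419, limma). EGR2, EGR3, FOSL1, JUNB, MYC and SRF were among the genes of the list that have no value in the files.

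Genes read as output or feedback of ERK changed in both directions. Of 19 genes 6 were listed, of which 3 were called higher and 2 lower. CCND1, the cyclin gene that growth factors induce in G1, fell from 13.04 and 13.05 to 10.96, 10.96 and 10.82 (difference -2.13, adjusted p = 4.33e-06, limma). The ephrin receptor gene EPHA2 fell by 1.18 (adjusted p = 0.000106, limma). SPRY1, an inhibitor of receptor tyrosine kinase signaling, rose from 6.80 and 7.06 to 10.16, 8.56 and 8.49 (difference 2.14, standard error 0.43, adjusted p = 0.0016, limma). Hypertrophic replicate 1 was far above the others in SPRY1, as in EGR1. The ETS factor gene ETV1 and the ephrin receptor gene EPHA4 rose by 1.06 and 1.19 (adjusted p = 0.00421 and 0.0014, limma). The call of ETV1 was lost without hypertrophic replicate 1 (0.79) and that of EPHA4 without replicate 3 (0.99), and both were lost when libraries were centred on their medians (0.72 and 0.84). SPRED2, another inhibitor of ERK signaling, had a difference of 0.81 (adjusted p = 0.00223, limma), with 0.46 for centred libraries and 0.35 after quantile normalization (adjusted p = 0.0542, limma).

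Of the other EGF family genes, the ligand gene NRG1 was called lower. Of 20 ligand, receptor and sheddase genes, 3 were listed beside HBEGF, of which all 3 had a lower mean and 1 was called. NRG1, a ligand of ERBB3 and ERBB4, fell from 11.20 and 11.05 to 9.11, 9.18 and 9.27 (difference -1.93, adjusted p = 1.02e-05, limma). EGF itself had a difference of -0.72 and ADAM9, a membrane protease gene, one of -0.83 (adjusted p = 0.00221 and 0.000231, limma), and both were called lower under median centring (-1.07 and -1.18). EGFR and the other ERBB receptor genes have no value in the files.

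SRF and its cofactors did not share a direction. Of 14 genes 4 were listed, and 1 was called with all libraries and the deposited scaling. MYOCD, the muscle coactivator gene of SRF, fell from 7.04 and 6.94 to 5.14, 5.41 and 5.69 (difference -1.57, adjusted p = 0.000122, limma). The related coactivator gene MRTFB had 11.21 and 11.08 against 12.06, 12.23 and 12.02, a difference of 0.96 (adjusted p = 0.000202, limma). MRTFB was called higher without growth medium replicate 1 (1.03) or hypertrophic replicate 3 (1.01). It had 0.62 under median centring and 0.68 with quantile normalization. ELK4, an ETS partner of SRF in the response of FOS, and the GTPase gene RHOB had differences of 0.59 and -0.68 (adjusted p = 0.00175 and 0.00114, limma). Median centring gave 0.24 for ELK4 (adjusted p = 0.0825, limma) and a call for RHOB (-1.03).

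Contractile and cytoskeletal targets of MRTF and SRF were mostly lower. Of 38 genes 8 were listed, 7 of them with a lower mean, and the median difference was -0.88. The calponin gene CNN1 fell from 12.65 and 12.68 to 11.08, 11.32 and 11.65 (difference -1.32, adjusted p = 0.000194, limma), and TUFT1, the tuftelin gene, also fell by 1.32 (adjusted p = 0.000106, limma). The filamin gene FLNC had a difference of -0.95, the transgelin gene TAGLN of -0.81, the myosin gene MYH9 of -0.70 and the tropomyosin gene TPM1 of -0.59, with adjusted p between 0.000365 and 0.00481 (limma). FLNC passed the threshold without growth medium replicate 2 (-1.01) or hypertrophic replicate 2 (-1.02), and the number of the 8 called lower was then 4 in place of 2. ACTA2, the smooth muscle actin gene, went the other way and rose from 6.05 and 6.19 to 7.66, 7.17 and 8.21 (difference 1.56, adjusted p = 0.000838, limma).

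The YAP/TAZ targets beyond CCN1 and ANKRD1 were nearly all lower. Of 22 targets 10 more were listed, of which 9 had a lower mean, 4 were called lower and 1 higher, and the median difference was -0.91. F3, the tissue factor gene that starts coagulation, fell from 11.97 and 12.02 to 10.20, 10.02 and 9.80 (difference -1.99, adjusted p = 1.43e-05, limma). CRIM1, a transmembrane protein gene that binds bone morphogenetic proteins, fell from 14.93 and 14.81 to 13.41, 13.51 and 13.45 (difference -1.41, adjusted p = 2.22e-05, limma). FJX1 and the growth arrest gene GADD45A fell by 1.10 and 1.05 (adjusted p = 0.000144 and 0.000256, limma), and the difference of GADD45A was -0.97 without hypertrophic replicate 2 and -0.99 without growth medium replicate 2. AXL, a receptor kinase gene, had a difference of -0.99, TGFB2 of -0.83, NT5E of -0.82, AMOTL2 of -0.75 and MYOF of -0.74, with adjusted p between 0.000113 and 0.00149 (limma). The exception was IGFBP3, an insulin-like growth factor binding protein gene, which rose from 10.88 and 10.87 to 13.52, 12.59 and 12.78 (difference 2.09, adjusted p = 0.000128, limma). ANKRD1 had the largest decrease of the 12 listed targets and CCN1 one near their middle.

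**Figure D4:**
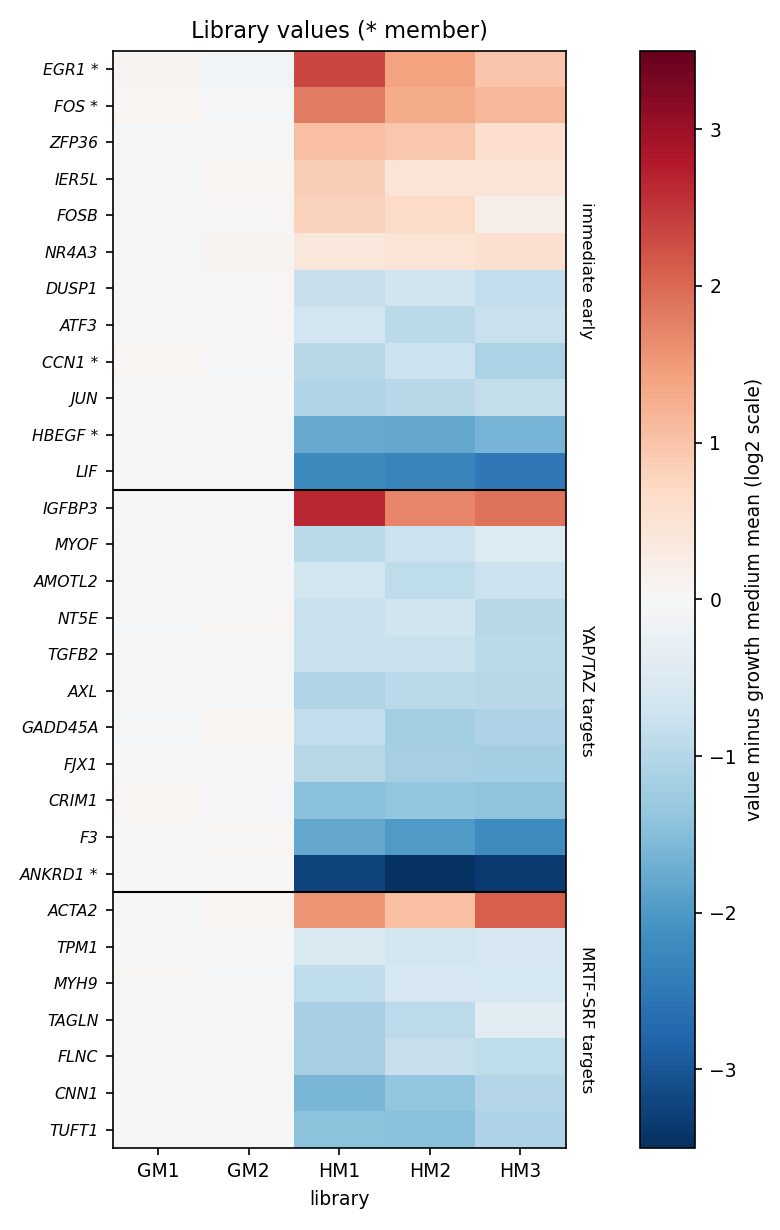
Values of the listed immediate early genes, YAP/TAZ targets and MRTF-SRF targets in each library, as the difference from the growth medium mean (color, log2 scale), with the 5 genes marked by an asterisk. CCN1 is drawn once, with the immediate early genes. In HM that block holds both red (higher) and blue (lower), while the other blocks are blue except for IGFBP3 and ACTA2.

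The Hippo pathway genes upstream of these targets were split. Of 31 components 8 were listed, 4 with a higher and 4 with a lower mean. The protocadherin gene DCHS1 rose by 1.45 and the scaffold gene WWC1 fell by 1.11 (adjusted p = 7.94e-05 and 0.000154, limma). WWTR1, which encodes TAZ, had 11.88 and 11.90 in growth medium and 12.82, 12.64 and 12.53 in hypertrophic medium, a difference of 0.77 (adjusted p = 0.000609, limma) or 0.43 with centred libraries, opposite to most of its targets. TEAD2 and the TEAD-binding repressor gene VGLL4 had differences of 0.56 and 0.72, and VGLL3, WWC2 and AMOTL2 of -0.84, -0.66 and -0.75. Under median centring 4 components were called lower in place of 1, with VGLL3 at -1.18, WWC2 at -1.01 and AMOTL2 at -1.10. TEAD2 was then at 0.21 (adjusted p = 0.133, limma) and VGLL4 at 0.38, or 0.35 and 0.46 with quantile normalization. YAP1 has no value in the files. In the CCN family, CCN3 was the other listed gene and had a difference of 0.96 (adjusted p = 0.000694, limma) where CCN1 had -0.94, and CCN3 was called without hypertrophic replicate 3 (1.05) but had 0.61 with centred libraries.

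Receptor genes for serum lipids, thrombin and platelet growth factors all had a higher mean, as did 63.4% of all listed genes. None was called with all libraries and no replicate block. The 7 listed of 16 were S1PR2, S1PR3 and S1PR5, which bind sphingosine 1-phosphate, the thrombin receptor genes F2R and F2RL2, and PDGFRA and PDGFRB. Their differences ran from 0.71 for S1PR3 to 0.97 for PDGFRA, and 6 had an adjusted p under 0.05 (limma). The median was 0.82, against 0.56 for all listed genes. With quantile normalization the difference was 0.37 for S1PR2, 0.30 for S1PR3 (adjusted p = 0.0649, limma) and 0.41 for S1PR5. F2R had 0.74 and F2RL2 0.72 (adjusted p = 0.0681 and 0.14, limma), PDGFRA 0.80 and PDGFRB 0.98. With median centring S1PR2, S1PR3 and S1PR5 had 0.44, 0.36 and 0.46, PDGFRA 0.62 and PDGFRB 0.60. Under that scaling F2R had 0.54 and F2RL2 0.47 (adjusted p = 0.114 and 0.303, limma). In the deposited values only F2RL2 of the 7 had an adjusted p above 0.05 (adjusted p = 0.0949, limma). Its difference of 0.82 was 0.26 without hypertrophic replicate 1. F2R had the same library on top, with 13.60, 12.37 and 12.35 in hypertrophic medium against 11.81 and 11.94. Without replicate 1, PDGFRA was called, with 1.19, and F2R had 0.48. Without replicate 2, F2R was called (1.09), and without replicate 3 the calls were F2R (1.10), F2RL2 (1.18) and PDGFRB (1.01), the same values as with a replicate block, in which the unpaired replicate 3 carries no weight. Of 26 proliferation genes, the 2 listed were CCND1 and MKI67, a marker of cycling cells, and MKI67 had a difference of 0.70 (adjusted p = 0.00199, limma), or 0.35 under median centring (adjusted p = 0.0859, limma), where CCND1 fell.

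**Figure D5:**
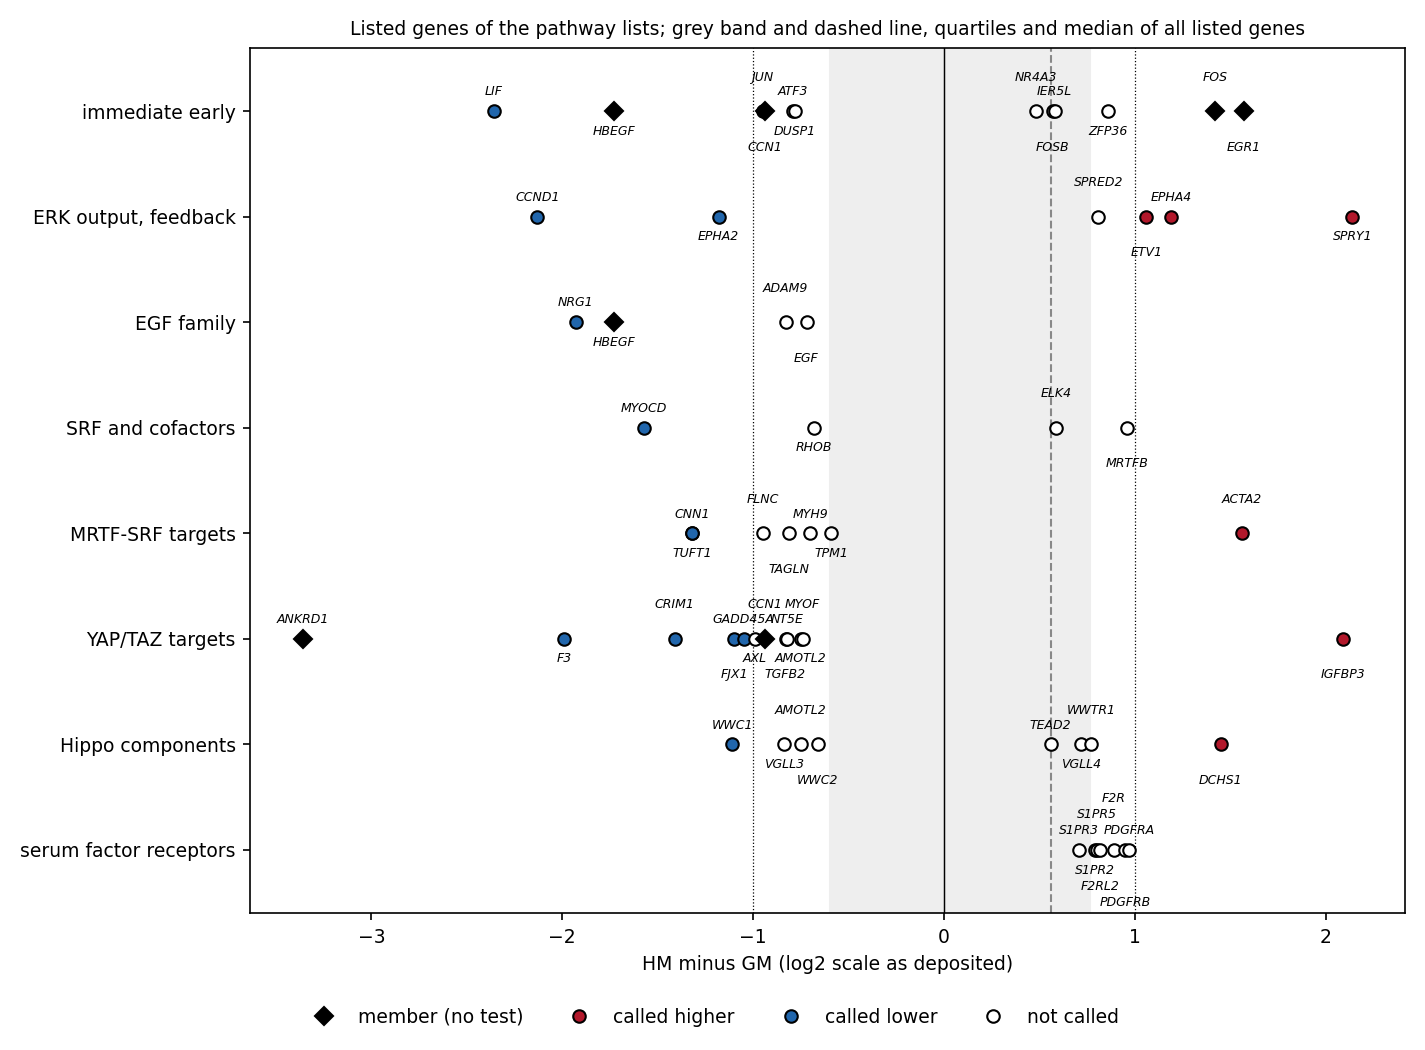
Difference between the media (HM minus GM, log2 scale) of each listed gene in 8 of the lists. Diamonds are the 5 genes, filled circles are called genes and open circles are not called, with dotted lines at 1 and -1 and a grey band for the quartiles of all listed genes. YAP/TAZ and MRTF-SRF targets lie left of 0 except IGFBP3 and ACTA2, and the receptor genes lie right of it.

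The listed genes with the most similar course over the 5 libraries were found from the root mean square distance between values centred on each gene's mean. For FOS these were TLE2, SBK1 and SEPTIN3 (distances 0.0655, 0.0673 and 0.0675). TLE2, a Groucho-type corepressor gene, was 8.51 and 8.56 in growth medium and 10.31, 9.89 and 9.76 in hypertrophic medium. For EGR1 they were SVEP1, BST2 and HAS2 (0.131, 0.145 and 0.148), each with hypertrophic replicate 1 highest, and EGR1 was 0.254 from FOS. HAS2, which encodes a hyaluronan synthase, was 9.17 and 9.21 against 11.23, 10.52 and 10.22. HBEGF was closest to the adrenomedullin gene ADM, ALDH1A3 and HYI (0.0563, 0.0651 and 0.0870), and ADM went from 12.22 and 12.27 to 10.60, 10.52 and 10.65. CCN1 was closest to the lymphatic growth factor receptor gene FLT4, MIR1304 and PDK1 (0.0415, 0.0434 and 0.0445). ANKRD1 was closest to the keratin genes KRT81 and KRT87P, which are similar in sequence and uncertain apart, and the endothelin gene EDN1 (0.138, 0.210 and 0.316).

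Cell type markers are given as a description. The listing holds only genes called different between the media, and levels are not compared between genes, so these markers cannot check the cell type. Of all listed genes, 63.4% had a higher mean, 11.8% were called higher and 7.05% were called lower. Of 16 chondrocyte markers 5 were listed, SOX9, COL2A1, COL9A2, COL9A3 and ACAN, and 4 were called higher in hypertrophic medium. SOX9 was at 0.65, or 0.30 under median centring and 0.29 with quantile normalization (adjusted p = 0.0525 and 0.059, limma). Under median centring or quantile normalization 1 of the 4 calls was left, COL2A1 (1.19 and 1.17), and 2 were left without hypertrophic replicate 1. The mean over the 5 was 9.08 and 9.06 in growth medium and 10.02 to 10.38 in hypertrophic medium. Among 9 fibroblast markers 5 were listed, all higher and 2 called, with a mean of 12.05 and 11.93 against 12.80 to 13.14. Both calls, COL3A1 and LUM, were lost under median centring (0.72 and 0.95), and that of COL3A1 also without hypertrophic replicate 3 (0.93). Of 9 muscle markers 2 were listed, MYOCD and CNN1, and both were called lower, as ANKRD1 was lower, while the smooth muscle actin gene ACTA2, which is not on that list, was called higher. Of 7 endothelial markers 4 were listed, CDH5 (-1.19) and TIE1 (-1.51) called lower, TEK (1.39) called higher and CLDN5 at 0.49. PHEX (0.79) was the 1 listed of 7 osteoblast markers. Median centring gave 0.15 for CLDN5 and 0.44 for PHEX (adjusted p = 0.399 and 0.0501, limma), and quantile normalization 0.50 and 0.64. The part of these markers in the differences of the 5 genes was not tested, and no listed value was 0.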

How the data were processed

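Total RNA of TC28a2 cells was sequenced from 2 growth medium and 3 hypertrophic medium libraries, with medium and replicate number taken from the sample labels. Per the methods of the study, the authors aligned reads to hg19 with HISAT2 and counted NCBI genes with StringTie, excluded genes with a zero count, and deposited log2-transformed, RLE-normalized values. The submitters' processing notes instead name bcl2fastq 2.20.0.422, cutadapt 1.18, TopHat2 2.0.13, Cuffdiff 2.2.1 and the build rn5. The files hold human symbols, which were placed on GRCh37 by the GENCODE annotation. Read depth is unknown, so precision rests on 2 and 3 libraries.

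The log2 values were compared as deposited with limma 3.58.1 in R 4.3.3 (lmFit and eBayes, with the prior variance following the mean and without a block), p-values being adjusted over all 2694 genes by Benjamini-Hochberg. Calls needed an absolute difference of at least 1 and an adjusted p under 0.05. Other steps used Python 3.11.15, pandas 2.3.3 and matplotlib 3.10.9. The 5 genes and all lists were chosen with earlier results of these data known. Named genes were the 5, the listed genes of the gene lists, and the 3 most similar genes of each of the 5. Of the MRTF-SRF targets, 1 is counted but not reported here by name or drawn. Alternatives were 2 other scalings, a replicate block, each library left out, no trend, a minimum mean of 6 and 2 other thresholds.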

Additional observations from a re-analysis of the deposited data

How the results depend on the processing

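The direction of the 5 genes and of the 83 other named genes held under both other scalings, the replicate block, each library left out, eBayes without a trend and, where they passed it, the minimum mean of 6. Centring each library on its median removes a shift of 0.347 between the media. The difference was then 1.07 for FOS, 1.23 for EGR1, -2.08 for HBEGF, -1.29 for CCN1 and -3.70 for ANKRD1. With quantile normalization it was 1.01 for FOS, 1.21 for EGR1, -2.08 for HBEGF, -0.99 for CCN1 and -3.65 for ANKRD1. With 1 library left out it ran from 1.23 to 1.55 for FOS, 1.19 to 1.88 for EGR1, -1.78 to -1.69 for HBEGF, -1.04 to -0.86 for CCN1 and -3.41 to -3.30 for ANKRD1. Of all listed genes, 120 were called higher and 565 lower under median centring and 150 and 398 under quantile normalization, against 318 and 190. Leaving out a library gave 254 to 416 higher and 187 to 205 lower, a difference above 2 gave 28 and 29, and an adjusted p alone 1683 and 984.

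In the 11 pathway lists, median centring gave 29 called lower, 4 of them immediate early genes, 6 MRTF-SRF targets and 9 YAP/TAZ targets, and 1 ERK gene called higher. Quantile normalization gave 4 immediate early genes called lower and 1 ERK gene called higher. With 1 library left out, 6 to 10 genes of the lists were called higher, the 10 without hypertrophic replicate 3, and 12 to 14 lower, with 2 to 4 MRTF-SRF targets lower. A difference above 2 left 2 higher and 2 lower, with 1 ERK gene each way, 0 MRTF-SRF targets in either direction and 0 YAP/TAZ targets lower. An adjusted p alone gave 24 higher and 30 lower, with 4 immediate early genes each way, 7 MRTF-SRF targets lower and 9 YAP/TAZ targets lower. A replicate block gave 10 genes of the lists called higher, but hypertrophic replicate 3 has no partner and drops out of it, and same-numbered libraries did not deviate together (correlation -0.0253 across genes), so the numbers do not pair them. Alternatives that need counts were not run. Where a count moved, the cause was not tested.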
